A study of Mus musculus with 2 samples.

Results

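The genes described here encode the protein parts of 2 molecular machines, the mitochondrial ribosome and the proteasome. They were chosen by name: protein-coding records of the RefSeq gene table on chromosomes 1 to 19 whose symbol is Mrpl or Mrps followed by a digit, or begins with Psma, Psmb, Psmc or Psmd. This gave 117 genes of 20665 protein-coding records, namely 78 mitoribosome genes (49 Mrpl and 29 Mrps) and 39 proteasome genes (8 Psma, 11 Psmb, 7 Psmc and 13 Psmd). One further gene with such a symbol, Psmd10, lies on the X chromosome, outside the rule. Chromatin contacts had been measured by Micro-C, in which crosslinked chromatin is cut by micrococcal nuclease and nearby ends are joined and sequenced. The cells were V6.5, a wild-type line of male mouse embryonic stem cells grown on gelatin, in 1 group called siControl with 2 samples. Both had received the control siRNA reagent siGLO at 50 nM and were taken 48 hours later and fixed with disuccinimidyl glutarate and formaldehyde. No other condition was available to set beside them.

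The deposited data are 1 list of loops for both samples together, of which 4858 of 4982 lie on chromosomes 1 to 19. A loop is a pair of intervals, its anchors, that touched more often than their surroundings in the judgement of the authors' caller. The list has no values per sample. The spread between replicates and the read depth are therefore unknown, and no difference described here was tested. The list holds no expression either, so the cell type could not be checked against its markers. Coordinates are in mm10, and chromosome X was not used. A gene was counted at an anchor if the first or last base of its record lay inside the anchor, and as enclosed if the whole record lay between the inner edges of the 2 anchors of a loop.

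The mitochondrial ribosome translates the few messages of the mitochondrial genome, which encode core subunits of the respiratory chain, and all of its proteins are encoded in the nucleus and imported. The proteasome degrades ubiquitin-tagged proteins. Its core is a barrel of alpha rings (Psma), which gate the entrance, and beta rings (Psmb), which hold the protease sites, and its regulatory cap has a ring of ATPases (Psmc) that unfold and feed in substrates, and other subunits (Psmd) that bind and strip ubiquitin. Pluripotent cells need both machines as most dividing cells do, and most of these genes are active in nearly every cell type. Symbols do not always match roles: Psmc3ip encodes a protein of meiotic recombination, Psmd5 and Psmd9 encode chaperones of proteasome assembly, Mrps18a and Mrps30 encode proteins found in the large subunit, and Mrps36 encodes a protein now assigned to the oxoglutarate dehydrogenase complex.

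Of the members, 4 had a gene start inside an anchor: Psmb6, Psmd12, Psma2 and Mrpl32. Their RefSeq promoter windows (GRCm38.p6, the assembly that mm10 names, 250 bases before to 50 after the start site) are shown because these are the stretches of member DNA that the loops touch at a gene start. Psma2 and Mrpl32, a proteasome gene and a mitoribosome gene, point away from each other with start sites 205 bp apart, and their windows are the same DNA read from opposite strands over 296 bases, so only the strand of Psma2 is printed. Capitals mark matches to the motifs described with the promoter counts, on either strand.
Psma2 (chr13:14612992-14613291, plus strand): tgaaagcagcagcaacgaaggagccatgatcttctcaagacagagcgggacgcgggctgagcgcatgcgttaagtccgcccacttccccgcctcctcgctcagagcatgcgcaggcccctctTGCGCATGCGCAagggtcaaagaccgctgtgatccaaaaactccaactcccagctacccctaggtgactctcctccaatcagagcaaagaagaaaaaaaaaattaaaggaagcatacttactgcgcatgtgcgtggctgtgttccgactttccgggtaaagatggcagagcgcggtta
Psmb6 (chr11:70525107-70525406, plus strand): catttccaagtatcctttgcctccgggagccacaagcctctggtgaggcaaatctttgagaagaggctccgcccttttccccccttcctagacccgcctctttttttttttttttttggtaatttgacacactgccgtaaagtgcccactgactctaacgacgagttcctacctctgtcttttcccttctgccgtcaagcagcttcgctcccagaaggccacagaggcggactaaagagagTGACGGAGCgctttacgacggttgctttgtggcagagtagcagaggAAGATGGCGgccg
Psmd12 (chr11:107479278-107479577, plus strand): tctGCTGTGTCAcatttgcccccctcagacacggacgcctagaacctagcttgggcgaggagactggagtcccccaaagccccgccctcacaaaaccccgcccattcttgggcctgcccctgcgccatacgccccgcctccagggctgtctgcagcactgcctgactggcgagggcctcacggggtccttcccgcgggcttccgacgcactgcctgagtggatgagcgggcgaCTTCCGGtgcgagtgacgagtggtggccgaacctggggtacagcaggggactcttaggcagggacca

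Few of these genes lay at loop anchors. An end of 8 of the 117 members (6.84%, exact Clopper-Pearson 95% interval 3.0 to 13%) lay inside an anchor, against 9.19% of all protein-coding genes of chromosomes 1 to 19. The mitoribosome had 5 of 78 (6.41%, 2.11 to 14.3%) and the proteasome 3 of 39 (7.69%, 1.62 to 20.9%). Member genes are short and lie among many neighbours. Their median length was 8.39 kb, against 17.6 kb for all other protein-coding genes, and a median of 5 protein-coding genes, against 3, had their midpoint within 100 kb. Other genes were therefore also sorted into 5 classes of length and 5 of gene density, and their shares were weighted to the classes of the members. That weighted share was 8.09%, or 9.47 genes where 8 were found. Both shares lay inside the interval of the members, so no difference was detectable at this number of genes. The sign of the difference also turned with the definition of an anchor: with anchors widened by 5 kb the members stood 5.39 percentage points above the weighted share. These intervals cover counting error over genes of 1 list only.

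Counted by symbol, 4 of 49 Mrpl genes were at an anchor (8.16%, interval 2.27 to 19.6%), and 1 of 29 Mrps genes (3.45%, upper bound 17.8%). That 1 gene was Mrps18a, whose protein belongs to the large subunit despite its symbol. Every mitoribosome gene found at an anchor thus encodes a large-subunit protein, but so do most mitoribosome genes (49 Mrpl against 29 Mrps symbols). The weighted shares of other genes were 7.36% for Mrpl and 9.13% for Mrps. Each lay inside the interval of its group, so no preference for either subunit was detectable. Of the proteasome symbols, Psma had 1 of 8, Psmb 1 of 11 and Psmd 1 of 13. None of the 7 Psmc genes had an end at an anchor, which allows a share of up to 42.9% when 3 counts are taken as the limit of a count of 0. With so few genes in each, the intervals of all 6 symbol groups overlap.

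**Figure D1:**
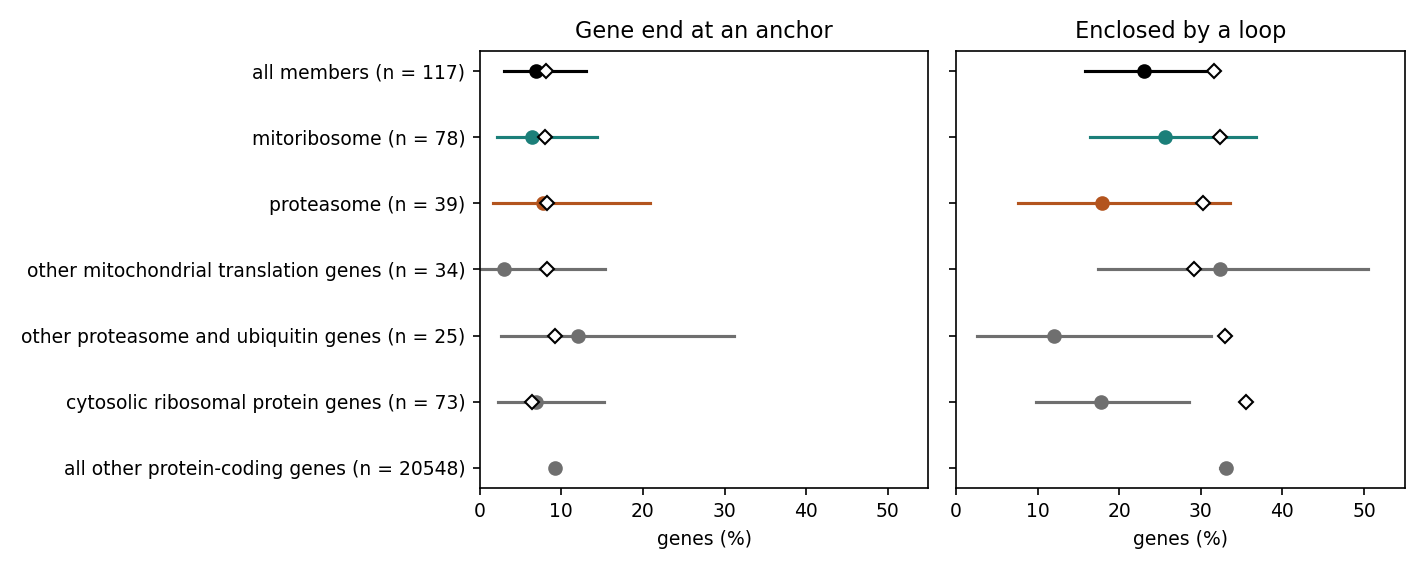
Share of genes with a gene end at a loop anchor (left) and enclosed by a loop (right), in percent, for the members, their 2 groups, 3 lists of related genes and all other protein-coding genes. Filled points are shares, lines are exact 95% intervals, and open diamonds are the shares of other genes weighted to the same classes of gene density and length; the members lie at 6.84% and 23.1%, and their diamonds at 8.09% and 31.6%.

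The 8 members at anchors took part in 8 loops, of which Psmb6 had 2 and Mrpl32 and Psma2 shared 1. These loops spanned 85 to 400 kb with a median of 320 kb, against 325 kb for all loops of chromosomes 1 to 19. Their peak scores, a unitless score of the caller given by the authors, ran from 3.30 to 4.59 with a median of 3.75, against 4.15 for all loops. Scores differ between pixel sizes. At 5 kb pixels the 3 member loops had a median of 4.20, against 4.88 for all such loops, and at 10 kb pixels the 5 member loops had 3.33, against 3.98. Of the 8 loops, 1 scored above the median of its pixel size, the loop of Mrpl32 and Psma2.

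Psmb6, which encodes a catalytic subunit of the beta ring, was the only member with 2 loops. Its whole record (chromosome 11, 70525324 to 70527858) lay in both anchors. One loop of 5 kb pixels ran 85 kb to an anchor (70610001 to 70615000) with ends of Mink1, a protein kinase gene, and Chrne, a gene of the muscle acetylcholine receptor. Its peak score was 4.20, at percentile 27.9 of loops of that pixel size. The other loop, of 10 kb pixels, ran 240 kb the same way to an anchor (70760001 to 70770000) with an end of Zfp3, a zinc finger gene, and scored 3.51 (percentile 26.2). It passed over 14 protein-coding genes, and its anchor at Psmb6 also held an end of Gltpd2.

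Psmd12 encodes a subunit of the lid of the regulatory cap. Its start (chromosome 11, record 107479528 to 107498036) lay in an anchor (107470001 to 107480000) joined over 270 kb to 107200001 to 107210000, with a score of 3.33 (percentile 17.1). Ends of the neighbouring gene Pitpnc1, which encodes a phosphatidylinositol transfer protein, lay at both anchors. The loop thus spanned Pitpnc1, and the body of Psmd12 ran out of it.

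Psma2, an alpha ring gene (chromosome 13, 14613242 to 14625673), and Mrpl32, of the large mitoribosome subunit (14610301 to 14613037), shared the anchor 14610001 to 14620000. It was joined over 370 kb to 14240001 to 14250000, where no protein-coding gene end lay. The score of 4.59 was the highest of the 8 loops, at percentile 73.4 of loops of 10 kb pixels, and the signal of its peak pixel stood at percentile 67.8. No protein-coding gene was enclosed by this loop. Since 1 anchor counts for both genes, the 8 members stand for 7 separate anchor positions, or 6.03% when the pair is counted once.

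Of the other 4 members, 3 reached an anchor with their 3' end alone, and the strand of the fourth, Mrpl4, was not known. Mrpl44, a large-subunit gene (chromosome 1, 79776018 to 79781445), had its 3' end in an anchor whose loop ran 400 kb (score 3.30). Mrpl42, also of the large subunit (chromosome 10, 95480805 to 95501949), had its 3' end in an anchor of a 395 kb loop (score 3.99). Mrps18a (chromosome 17, 46111004 to 46128908) shared an anchor at its 3' end with Rsph9, a gene of the radial spokes of cilia, and a loop of 390 kb led to an anchor with an end of 1600014C23Rik (score 3.33). Mrpl4, of the large subunit (chromosome 9, 21001252 to 21008839), had its low-coordinate end in an anchor joined over 100 kb to a site with no gene end (score 4.53). It was the only member that was also enclosed, by a separate loop of 250 kb with a score of 4.13. Of the 8 members, 1 (Mrps18a) had a body that ran into its loop, 2 (Psmb6 and Mrpl32) lay wholly in the anchor and 5 ran out of the loop.

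**Figure D2:**
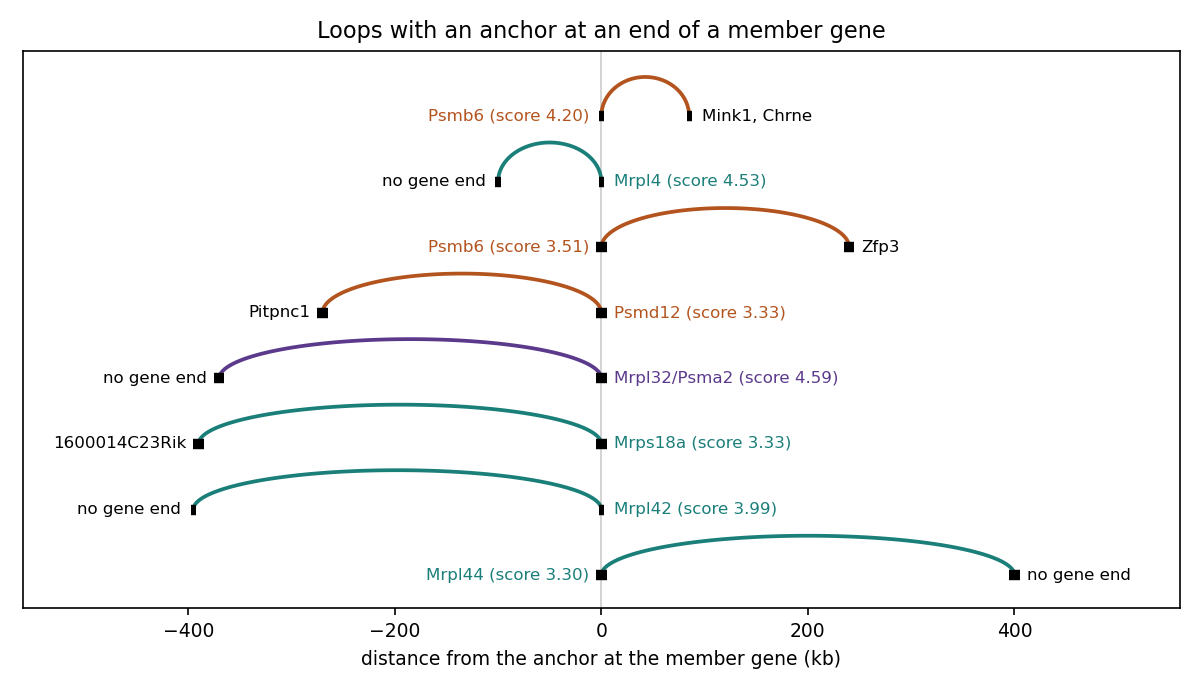
The 8 loops with an end of a member gene at an anchor, drawn to scale as arcs from the anchor at the member (0) to the far anchor, in kb along the chromosome. Black bars are anchors at their listed width, text at the far end names genes with an end there, and colours separate mitoribosome (green), proteasome (orange) and shared (purple) anchors. Spans run from 85 kb (Psmb6) to 400 kb (Mrpl44), and 4 far anchors hold no protein-coding gene end.

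For all members together, gene starts alone gave the same picture with smaller numbers. Of 101 members with a strand in the promoter table, 4 had their start in an anchor (3.96%, interval 1.09 to 9.83%), against 4.99% of the 16457 protein-coding genes with a strand. These were 1 of 69 mitoribosome genes (1.45%), below that share, and 3 of 32 proteasome genes (9.38%), above it. The 95% intervals of both groups overlap, and both include the share of all genes with a strand.

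More members lay just outside anchors than inside them. A gene end of 15 members lay outside an anchor but within 5 kb of it, against 8 members inside. Over all protein-coding genes the order was the other way, with 7.32% just outside and 9.19% inside. Counting both, 23 members (19.7%) had an end at or within 5 kb of an anchor, against 16.5% of all protein-coding genes and 14.3% of other genes weighted to the members' classes. Within 10 kb the members had 24.8% and the weighted other genes 18.9%. No interval was computed for the shares near anchors, and these differences were not tested. Farther out the shares came closer, with 41.9% of members and 41.2% of weighted other genes within 50 kb, and 56.4% and 55.4% within 100 kb.

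The 2 groups were alike in this, with 16 of 78 mitoribosome genes (20.5%) and 7 of 39 proteasome genes (17.9%) at or within 5 kb. The closest miss was Psmc1, an ATPase gene whose start lay 202 bp from the anchor of a 130 kb loop (score 5.54). Mrps31, of the small subunit, ended 332 bp from an anchor of a 140 kb loop (4.15), and Psmd7, of the regulatory lid, had an end 380 bp from an anchor of a 185 kb loop (3.76). The start of Mrps23 was 895 bp from an anchor that lay inside its own record (5.07). Mrps17 ended 1.29 kb from an anchor, Mrpl39 ended 1.72 kb from one, and Psmb7, a catalytic beta ring gene, had an end 1.96 kb from one. Mrpl55, Psma7 and Mrpl15 followed at 2.49, 2.54 and 3.20 kb. At the nearest anchor, 8 of the 15 genes lay on the outer side of the loop, 3 on its inner side, and 4 had the anchor within their record. The nearest gene end was the start in 6 and the 3' end in 4; the strand of the other 5 was not known. An anchor is 5 to 25 kb wide, so distances below that are finer than the width of the anchors.

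**Figure D3:**
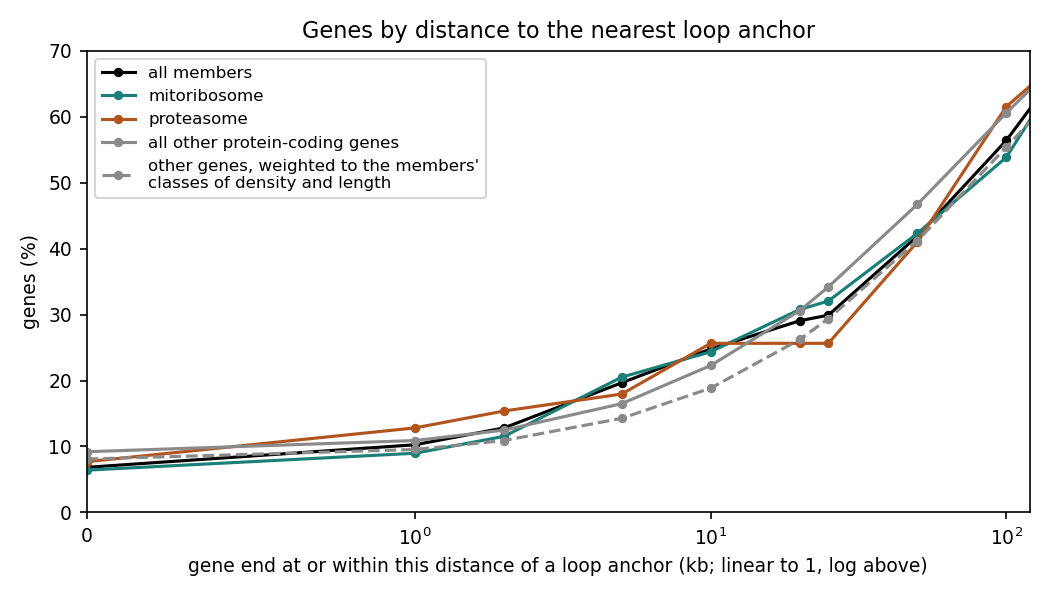
Share of genes, in percent, with a gene end at or within a given distance of a loop anchor, in kb, for the members, both groups, all other protein-coding genes and those other genes weighted to the members' classes of density and length. The distance axis is linear to 1 kb and logarithmic above. At 0 kb the members (6.84%) lie below the weighted other genes (8.09%), and at 5 kb (19.7%) they lie above the other genes (16.5%) and the weighted other genes (14.3%).

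Anchors within a gene body added 6 members when any overlap was counted, for 14 in all (12%). Counted in this way, the share of members was 0.972 percentage points above the weighted share of other genes. With gene ends alone that difference was -1.26 percentage points. Anchors within a gene body thus added more to the share of members than to the weighted share of other genes. This rests on 6 members and was not tested. Mrps23 held anchors of 2 loops, of 130 and 235 kb (scores 5.07 and 4.52), and Mrpl13 held an anchor shared by loops of 240 and 450 kb (4.79 and 5.04). Mrps27, Mrps28, Mrpl39 and Psmb7 held 1 each, with spans of 465, 320, 110 and 160 kb and scores of 4.76, 5.46, 3.03 and 4.49.

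A smaller share of members than of other genes lay inside loops. Of the 117, 27 (23.1%, interval 15.8 to 31.8%) were enclosed by at least 1 loop, against 33.0% of all protein-coding genes and 31.6% of other genes weighted to the same classes, which would be 37.0 genes. The share of all genes lay above the interval and the weighted share just inside its upper bound. The mitoribosome had 20 of 78 enclosed (25.6%, 16.4 to 36.8%, weighted share 32.3%) and the proteasome 7 of 39 (17.9%, 7.54 to 33.5%, weighted share 30.2%). In each of the 6 symbol groups the share was below the weighted share of other genes, which lay inside the group's interval. Enclosed genes were 13 of 49 for Mrpl, 7 of 29 for Mrps (Mrps36 among them), 2 of 8 for Psma, 1 of 11 for Psmb, 1 of 7 for Psmc and 3 of 13 for Psmd. Members had 0.325 enclosing loops on average, against 0.477 for weighted other genes. The share of members minus that of weighted other genes was -8.54 percentage points with all loops, and -0.826 points with only the loops that scored above the median for their pixel size.

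Members and weighted other genes had similar numbers of loops nearby. Loops with an anchor midpoint within 250 kb numbered 1.87 per member on average and 1.82 per weighted other gene. The mean was 1.95 in the mitoribosome (weighted 1.81) and 1.72 in the proteasome (weighted 1.82). No such loop lay near 23 members (19.7%), against 23.9% of all other protein-coding genes. The median distance to an anchor was larger for members, 78.6 kb against 58.9 kb for all other protein-coding genes without weighting. Against weighted other genes the shares were close, 41.9% of members and 41.2% within 50 kb, and 56.4% and 55.4% within 100 kb. The mean distance of members was smaller, 198 kb against 267 kb for weighted other genes. In all, 83 members (70.9%) were neither at an anchor nor enclosed, against 61.0% of all other genes.

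Mrpl1, a large-subunit gene on chromosome 5, was enclosed by 4 loops, the most of any member, from 375 to 3600 kb, all of 25 kb pixels. Next came 8 members with 2 loops each, Mrpl23, Mrpl33, Mrpl37, Mrps6, Mrps17, Psma6, Psmb2 and Psmd14, and 18 members had 1. Of the 5 members with the shortest enclosing loop, 4 were proteasome genes. Psma7 lay in a loop of 125 kb (score 5.34) with its start 2.54 kb from the anchor, Mrps17 in one of 130 kb (6.23) and Psmb2, a beta ring gene, in one of 140 kb (3.21). Psmd2, which encodes a large scaffold subunit of the cap, lay in one of 155 kb (4.86) with ends of Dvl3 and Eif4g1 at its anchors, and Psma6 in one of 185 kb (5.18). The innermost loop around a proteasome gene had a median span of 185 kb over 7 genes, against 445 kb over 20 mitoribosome genes, with ranges of 125 to 4700 kb and 130 to 6225 kb that overlap. Taken per gene, the shortest enclosing loop had a median of 410 kb over the 27 enclosed members, against 375 kb over the 6788 other enclosed genes, and the quartiles of the members, 220 and 962.5 kb, lay on either side of that value. The 37 loops that enclosed a member had a median span of 540 kb and a median score of 4.34. Loops that enclosed any protein-coding gene had medians of 360 kb and 4.25, and the difference was not tested. A loop that holds many genes is more likely to hold a member, so these sets of loops are unlike by construction.

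Some members lay inside loops between genes of other kinds. Mrpl43 (chromosome 19, 45005014 to 45006442) lay in a 410 kb loop (score 4.30) with ends of the developmental transcription factor genes Pax2 and Tlx1 at its anchors. Mrpl23 lies in the imprinted domain of chromosome 7, and its innermost loop, of 190 kb (3.87), ended at an anchor with an end of the insulin gene Ins2. Mrpl46 and Mrps11, genes of the large and the small subunit that stand head to head with 41 bp between their records, were enclosed together by a loop of 6000 kb on chromosome 7 (score 5.40) and by no other. Psmd6 lay 37.2 kb from an anchor of a 4700 kb loop on chromosome 14 whose score of 10.4 was the highest of any loop that held a member.

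**Figure D4:**
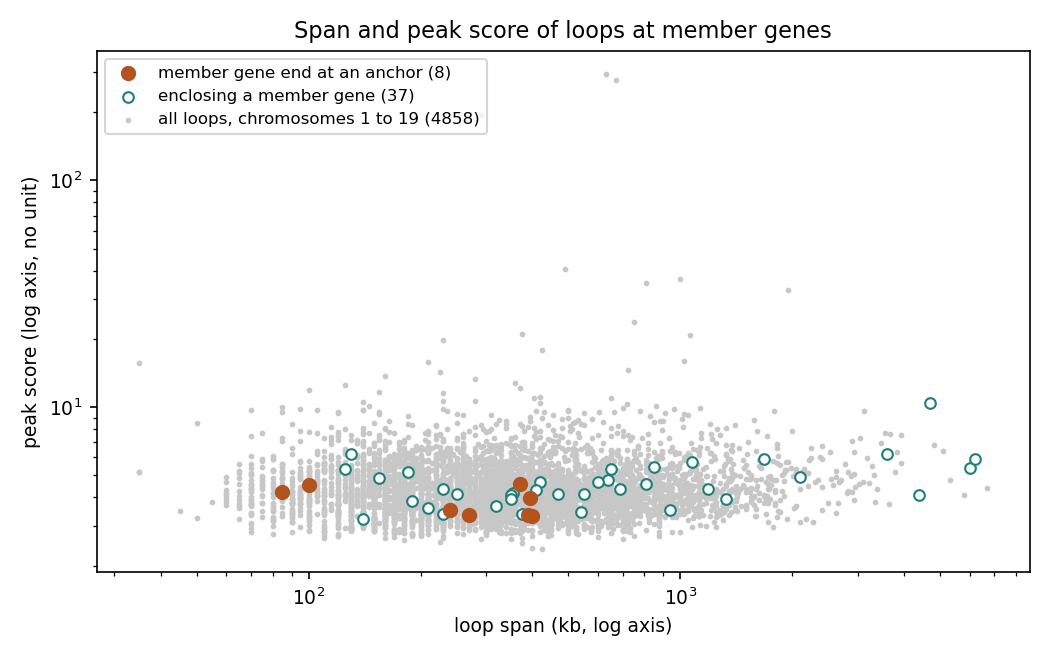
Peak score (no unit, log axis) against span in kb (log axis) for the 8 loops with a member gene end at an anchor (filled), the 37 loops enclosing a member (open) and all 4858 loops of chromosomes 1 to 19 (grey). The 8 loops lie between 85 and 400 kb and between scores of 3.30 and 4.59, while the enclosing loops reach 6225 kb and 10.4.

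The genes of the inducible proteasome lay far from any loop. Psmb8, Psmb9 and Psmb10 encode the beta subunits that replace the standard protease sites in immune cells and after interferon. Psmb9 and Psmb8, neighbours on chromosome 17 with 10.9 kb between their records, lay 682 and 698 kb from the nearest anchor, and Psmb10, on chromosome 8, lay 482 kb away. None of the 3 was enclosed by a loop or had an anchor midpoint within 250 kb. Their standard counterparts were Psmb5 at 92.0 kb from an anchor, Psmb6 at an anchor and Psmb7 at 1.96 kb. Psmb8 and Psmb9 share 1 locus, so this rests on 2 positions against 3. Such distances were not limited to inducible genes, as Psmb4, also a Psmb gene, lay 623 kb away and Psmd9 910 kb. The median over the 39 proteasome genes was 72.4 kb.

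The members farthest from an anchor were Mrpl21 (3182 kb) and Mrpl11 (1508 kb), both on chromosome 19, and Psma8, a proteasome gene of the germline, on chromosome 18 (1396 kb). They were followed by Psmd9 (910 kb), Mrpl9 (833 kb), Mrpl48 (736 kb), Psmd3 (708 kb), the pair Psmb8 and Psmb9, and Psmb4 (623 kb). The median distances by symbol group were 105 kb for Mrpl, 42.7 kb for Mrps, 46.9 kb for Psma, 80.4 kb for Psmb, 121 kb for Psmc and 72.4 kb for Psmd. In each group the nearest member was under 1 kb from an anchor and the farthest at least 389.9 kb away. The 90 members enclosed by no loop included, in order of symbol, Mrpl10, Mrpl11, Mrpl12, Mrpl13, Mrpl14, Mrpl18, Mrpl19, Mrpl2, Mrpl20 and Mrpl21.

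**Figure D5:**
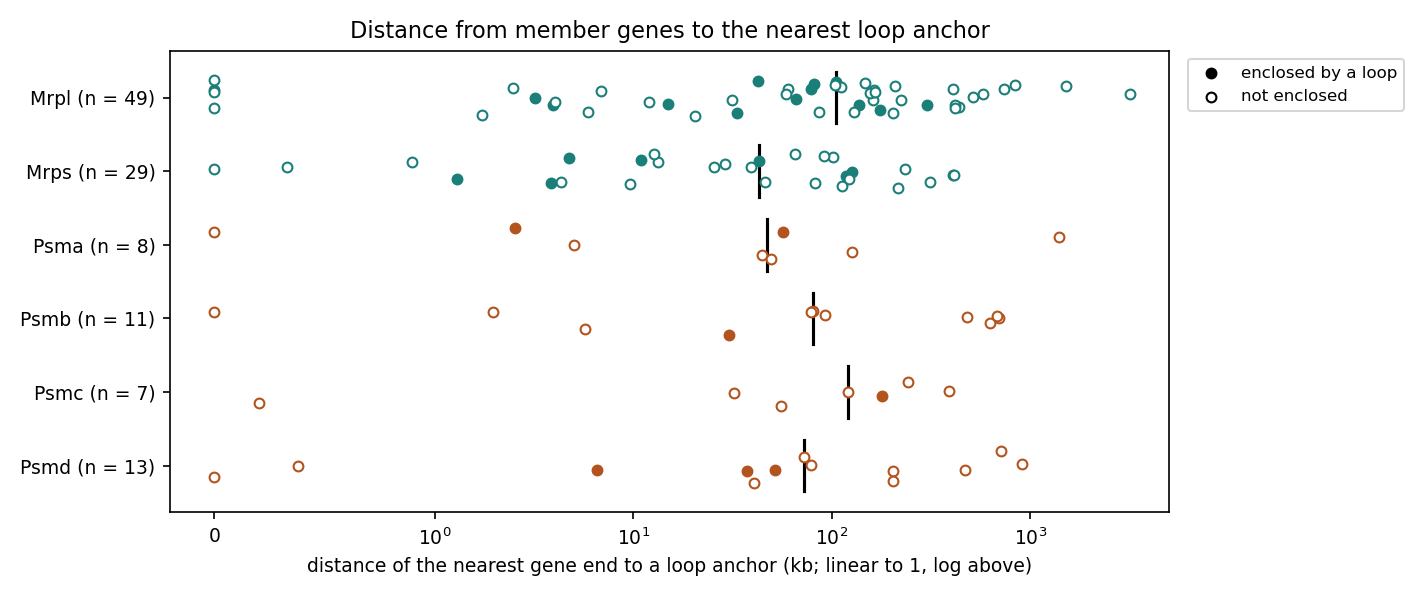
Distance in kb of the nearest gene end to a loop anchor for each of the 117 members, by symbol group (linear up to 1 kb, log above). Each point is a gene, filled where a loop encloses it, and black ticks are medians; the medians run from 42.7 kb (Mrps) to 121 kb (Psmc), and the groups overlap over nearly their whole range.

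Many members share their promoter region with another gene. Of the 101 with a strand, 33 (32.7%, interval 23.7 to 42.7%) had a divergent partner. This is a protein-coding gene on the other strand whose start lies within 1 kb. The share was 10.6% over all protein-coding genes with a strand. Among members it was 27 of 69 in the mitoribosome (39.1%) and 6 of 32 in the proteasome (18.8%). Where the gap between the start sites is positive, the partner points away. In some pairs the gap is negative, as in Mrpl43 with Twnk (-779 bp), so the partner starts inside the member's record. Partners that lack a strand in the table are missed in all these counts. In 2 cases both partners were members, Mrpl32 with Psma2 and Mrpl46 with Mrps11. Other partners were Ndufs6 (of Mrpl36) and Ndufb5 (of Mrpl47), genes of respiratory complex I, Sars2 (of Mrps12), which charges mitochondrial serine tRNA, Sirt3 (of Psmd13), a mitochondrial deacetylase, and Tap1 (of Psmb9), a peptide transporter of antigen presentation. Of the 33 members, 2 had an end at an anchor (6.06%) and 8 were enclosed (24.2%). Of the 68 others, these were 5 (7.35%) and 14 (20.6%). Among all other protein-coding genes, those with a divergent partner were at anchors in 7.82% and enclosed in 21.8%, and those without in 9.18% and 33.9%.

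Promoter windows of members held some motifs more often than those of other genes. Motifs were searched on both strands in 1 window per gene, and a match is a description of the letters only. The GABPA motif of ETS factors, searched as CCGGAAG, was in 34 of 101 member windows (33.7%), against 12.3% of 16457 protein-coding windows. YY1, searched as AAGATGGCG, was in 10 (9.90%), against 1.92%, and the motif of NRF1, a regulator of nuclear genes for mitochondria, in 9 (8.91%), against 1.94%. The 9 include both Psma2 and Mrpl32, whose overlapping windows hold the same match. The antioxidant response element, searched as TGACNNNGC and bound by Nfe2l1, which raises proteasome genes when proteasome activity falls, was in 5 of 32 proteasome windows (15.6%), 14 of 69 mitoribosome windows (20.3%) and 13.2% of all windows. The CTCF motif, of the factor that stops cohesin at many loop anchors, was in 1 of 101 (0.990%), against 0.559%. Member windows had a median of 20 CpG, against 14 over all windows, and a median GC of 58.0%, against 56.7%. In the windows printed above, Psma2 and Mrpl32 share an NRF1 match that reads the same on both strands, Psmb6 holds 1 YY1 and 1 antioxidant response element match, and Psmd12 holds 1 GABPA and 1 antioxidant response element match. None of these holds a CTCF match, which says nothing of the rest of the anchors.

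Other genes of the same pathways were counted in the same way. Of 34 further genes of mitochondrial translation and mitoribosome assembly, 1 had an end at an anchor (2.94%, upper bound 15.3%), Rbfa, which encodes a ribosome maturation factor and had a loop of 2400 kb (score 3.52), and 11 were enclosed (32.4%, weighted share 29.1%). Of 25 genes of proteasome activation, assembly and ubiquitin supply, 3 had an end at an anchor (12%, interval 2.55 to 31.2%). These were Psmg3 and Pomp, which encode assembly factors, with loops of 475 and 460 kb (scores 4.43 and 3.74), and Uchl5, a deubiquitinase gene, with one of 370 kb (3.94). Only 3 of the 25 were enclosed (12%, 2.55 to 31.2%, weighted share 33.0%). Of the 73 genes of cytosolic ribosomal proteins, 5 had an end at an anchor (6.85%, 2.26 to 15.3%): Rpl37a, Rpl37, Rpl30, Rpl17 and Rpl29, with loops of 140 kb (Rpl29) to 2925 kb (Rpl30). Of these 73, 13 were enclosed (17.8%, 9.84 to 28.5%, weighted share 35.5%). The intervals for enclosure in the 117 members and in the cytosolic ribosomal proteins overlap.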

How the data were processed

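The deposited loop list covers both siControl samples. The submitters' processing notes name mm10 and Juicer 1.5.6. Which program called the loops, at what thresholds, and whether the samples were merged first is not given in the sources used here. Columns carry no names, so their meanings were inferred from order and values: the authors' scores (peak and regional), a deposited fraction between 0.964 and 1, and a deposited signal, the peak pixel of the contact map, of unknown normalization. Scores are the authors' and only rank loops within this list.

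Anchors were made 1-based. Span is the distance between anchor midpoints. Genes came from RefSeq GRCm38.p6, strands and promoter windows from its promoter table (101 members matched). Expected shares weighted non-members of the same 25 combined classes of gene density (midpoints within 100 kb) and length, in place of a random draw. Shares carry exact 95% intervals where these are printed. No test was possible with 1 list. Code was tested on simulated data (Python 3.11.15, SciPy 1.17.1).

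Members, lists and alternatives were chosen with earlier results of these data known. Named genes are all members at anchors, the 10 nearest and 10 farthest of the others, enclosed members with the most or the shortest loops, far-anchor genes and listed pathway genes at anchors; those chosen after seeing their values are the inducible beta subunits, the genes with interior anchors, Mrpl43, Mrpl23, Mrpl46, Mrps11, Psmd6 and the named divergent partners. Of 28 listed proteasome and ubiquitin genes, 25 were matched; Ubqln2, Uba1 and Paaf1 were not used here.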

Additional observations from a re-analysis of the deposited data

How the results depend on the processing

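No paired analysis was possible because replicates have no values of their own here, and for the same reason no replicate could be left out. Of 54 alternative values, 41 stayed within the 95% interval (or, for medians, the quartiles) of the value given in the report with its direction, 8 moved outside it and 5 reversed. All 5 reversals concern the share of members at an anchor minus the weighted share of other genes, which was -1.26 percentage points. It was 0.739 with loops of 5 kb pixels alone, 0.223 with loops of 5 and 10 kb pixels, 5.39 and 5.94 with anchors widened by 5 and 10 kb, and 0.972 with any overlap of the gene record; the cause was not tested. The share at an anchor itself moved to 2.56% with 5 kb pixels alone, 1.71% with loops that scored above the median for their pixels, and 19.7% and 24.8% with anchors widened by 5 and 10 kb. For the mitoribosome it moved to 1.28% with loops above that median and 20.5% with anchors widened by 5 kb. The enclosed share moved to 5.13% with 5 kb pixels alone, and the median span of loops with a member gene end to 100 kb within 5 kb pixels. Fewer loops and wider anchors change such counts by construction. The enclosed share stayed below the weighted share under all 11 alternatives run, by 0.826 (loops above the median score) to 9.98 percentage points (density within 250 kb). Classes of chromosome and density, chosen after seeing the data, gave -6.22.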
